A study of Mus musculus with 11 samples.

Results

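The 10 genes described are the insulin-like growth factor (IGF) ligands Igf1 and Igf2, the receptors Igf1r and Igf2r, and the binding proteins Igfbp2, Igfbp3, Igfbp4, Igfbp5, Igfbp6 and Igfbp7. They were taken by symbol from a table of 20640 gene symbols, and all 10 were found in it. Both IGFs are small secreted growth factors that signal mainly through the tyrosine kinase encoded by Igf1r, and from there through PI3 kinase and Akt to protein synthesis, growth and survival. The binding proteins hold the ligands in the tissue or in blood, where they prolong, store or block their action, and proteases release the ligand again. In skeletal muscle the system is known for supporting fibre growth and the proliferation and differentiation of muscle stem cells.

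The measurements were bulk RNA-seq of 11 libraries of cells sorted from mouse limb muscle. All mice carried Pax7-CreERT2;Rosa-YFP, so that tamoxifen switched on a permanent YFP label in cells expressing Pax7, the transcription factor of muscle stem cells, and in their descendants. Tamoxifen was given by mouth for 5 days at 240 mg/kg when the mice were 12 to 14 weeks old, in every group. The sort kept YFP+ cells without Sca-1, CD31 or CD45. The middle-aged group had 3 libraries of YFP+ cells with no VCAM1 gate in their titles. Its age is 10 to 14 months in the sample labels and 12 to 14 months in the extraction protocol. Cells of geriatric mice, over 28 months old, were divided by surface VCAM1, a stem cell adhesion molecule, on gates set from middle-aged cells, with 3 libraries titled VCAM1-high, 2 titled VCAM1-low and 3 titled VCAM1-negative. A separate design text uses other names for the 2 lower gates, mid and low/-. Age, gating and the time since labelling change together between the middle-aged and the geriatric groups and cannot be told apart. Whether the libraries within a group came from separate mice is not stated, and p-values therefore reflect the spread among these libraries, which may be technical. In bulk RNA, fewer cells of a type and less RNA per cell cannot be told apart.

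Values are RPKM, read counts scaled to gene length and to the mapped reads of the library, so levels can be compared between genes per length. The depth estimated from the low RPKM steps was 20050000 to 29750000 reads a library, at which 1 read of a 1 kb gene is 0.0336 to 0.0499 RPKM. All 12 genes of the muscle stem cell marker list were present in every library. Pax7 itself was at 1.71 to 7.85 RPKM. The listed markers of other cell types were not absent: the genes of the sorted-out proteins reached 66.3 RPKM (Ly6a, Sca-1), 20.5 (Pecam1, CD31) and 3.30 (Ptprc, CD45). Middle-aged library 3 stood apart by summed fibro-adipogenic progenitor markers (3556 RPKM, against 1179 to 2320 elsewhere) and VCAM1-high library 3 by summed macrophage markers (1180, against 3.14 to 309 elsewhere). Myofibre markers summed to 699, 7242 and 5637 RPKM in the VCAM1-negative libraries and to at most 336 elsewhere. The 3 erythroid markers found summed to 5.77 to 165 RPKM at middle age and 14.0 to 488 for VCAM1-high cells. They summed to 523 to 650 for VCAM1-low and 194 to 650 for VCAM1-negative cells.

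Differences are given as log2(RPKM + 1) with the standard error of a linear model over all 11 libraries (limma), and a gene passed at a Benjamini-Hochberg adjusted p under 0.05 over the 11568 genes that reached 1 RPKM in at least 2 libraries. All 10 IGF genes met that minimum, Igfbp2 through only 3 libraries. On this scale the changes of low genes are understated. Libraries are named by group and number. Libraries of the same number deviated together between geriatric gates and, less clearly, between middle-aged and VCAM1-high cells. The value with the number as a block is given where it changes a call of an IGF gene. For the pathway genes named later it is given for VCAM1-high against middle-aged cells and for VCAM1-negative against VCAM1-high cells.

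In middle-aged cells the most abundant IGF transcripts were those of binding proteins. Igfbp4 had the highest mean, followed by Igfbp7 and Igfbp5, and this order of means was the same in all 4 groups. Single libraries departed from it. Igfbp5 led in middle-aged library 2 (136 RPKM, against 125 for Igfbp4), and Igfbp7 in VCAM1-high library 2 (168, against 140). The ligands were much lower, with means of 8.32 RPKM for Igf1 and 9.02 for Igf2, and Igf1r was lower still at 3.79. In geriatric cells of every gate Igf1 was the rarer ligand and Igf2 the more abundant. Without a block, of the 10 genes, Igf1 passed in each comparison with middle-aged cells and Igf2 passed over the mean of the 3 geriatric gates.

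**Figure D1:**
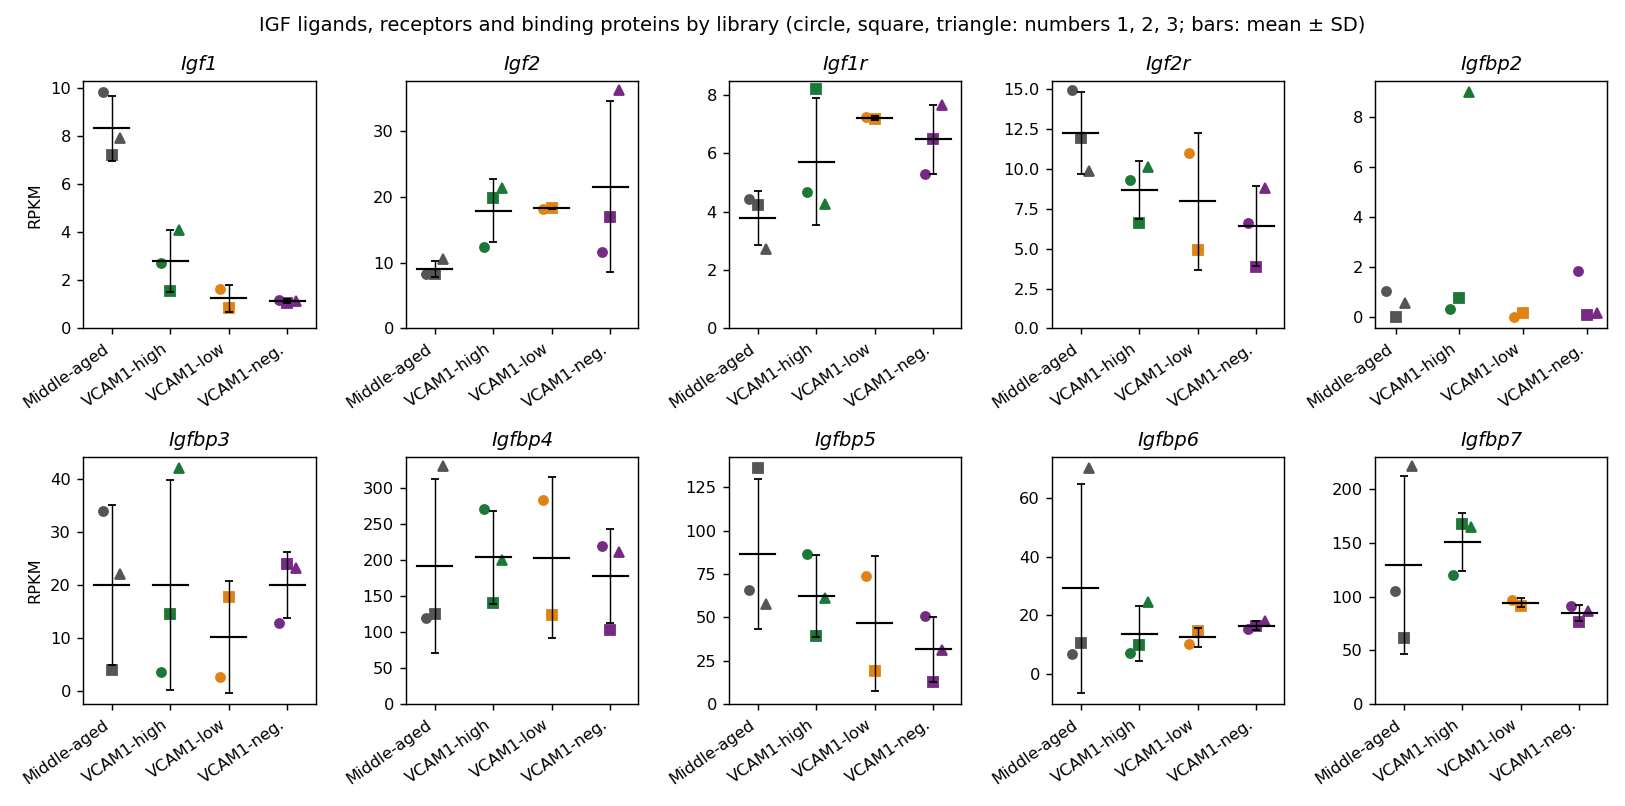
Each panel plots the RPKM of an IGF gene (y axis) in the 4 groups (x axis), with a point per library and the mean ± SD of each group, points only for Igfbp2, which is listed at 0 in 2 libraries. Igf1 lies at 7.21 RPKM or more in the 3 middle-aged libraries and at 4.11 or less in the 8 geriatric ones, and Igf2 shows the opposite order, while the middle-aged points of Igfbp4, Igfbp6 and Igfbp7 are spread by library 3.

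The promoter sequences of the genes whose levels the comparisons turn on are shown first. Igf1 and Igf2 stand for the difference between middle-aged and geriatric groups, and Igfbp5 and Igfbp7 for that between geriatric gates. They are RefSeq sequences of build GRCm38.p6, 300 bases each, from 250 before to 50 after the gene's start, and all 10 IGF genes had a match there. The submitters' notes name another build, GRCm39, so no coordinate of the expression table is implied. Igf2 has 4 starts in the reference, and the start with the most CG dinucleotides is printed. Which start the transcripts used cannot be read from values per gene. Igf1 is at chr10:87860861-87861160 (+ strand), Igf2 at chr7:142658755-142659054 (− strand), Igfbp5 at chr1:72874816-72875115 (− strand) and Igfbp7 at chr5:77407996-77408295 (− strand). Capitals mark 6 motifs searched on both strands, where N is any base: the TATA box TATAAA, the GC box GGGCGG, the E-box CANNTG, the FoxO-type motif GTAAACA, the STAT-type motif TTCNNNGAA and the CCAAT box, spelled as named. None of the 9 marked stretches overlaps another.
Igf1: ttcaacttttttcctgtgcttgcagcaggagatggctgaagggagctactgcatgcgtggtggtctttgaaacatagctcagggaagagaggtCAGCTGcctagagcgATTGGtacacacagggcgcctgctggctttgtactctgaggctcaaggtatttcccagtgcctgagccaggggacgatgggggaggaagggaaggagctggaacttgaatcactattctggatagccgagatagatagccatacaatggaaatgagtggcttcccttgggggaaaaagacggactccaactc
Igf2: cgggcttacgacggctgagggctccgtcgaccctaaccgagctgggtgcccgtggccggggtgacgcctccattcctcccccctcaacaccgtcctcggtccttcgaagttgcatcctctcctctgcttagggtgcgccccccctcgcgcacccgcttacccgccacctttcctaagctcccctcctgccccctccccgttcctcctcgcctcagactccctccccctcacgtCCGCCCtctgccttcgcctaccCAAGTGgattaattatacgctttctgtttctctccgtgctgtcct
Igfbp5: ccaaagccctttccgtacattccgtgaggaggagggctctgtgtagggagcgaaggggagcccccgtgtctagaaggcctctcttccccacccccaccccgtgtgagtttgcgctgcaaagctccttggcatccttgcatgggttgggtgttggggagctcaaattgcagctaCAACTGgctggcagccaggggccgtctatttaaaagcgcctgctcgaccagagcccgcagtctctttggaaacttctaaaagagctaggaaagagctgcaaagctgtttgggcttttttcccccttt
Igfbp7: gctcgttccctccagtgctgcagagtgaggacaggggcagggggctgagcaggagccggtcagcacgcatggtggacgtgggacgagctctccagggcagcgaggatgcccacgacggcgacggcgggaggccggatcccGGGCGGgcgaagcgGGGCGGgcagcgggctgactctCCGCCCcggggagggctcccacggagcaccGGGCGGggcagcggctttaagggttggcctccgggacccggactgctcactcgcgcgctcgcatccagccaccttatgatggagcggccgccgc
Igf1 held 6 CG dinucleotides, a CANNTG at position -157 and a CCAAT on the other strand at -142 from the start. The printed Igf2 start held 24 CG, with a GGGCGG on the other strand at -17 and a CANNTG at 5. Igfbp5 held 10 CG and a CANNTG at -77. Igfbp7 held 33 CG and 4 GGGCGG. Of 32851 promoters of this length in the reference, 72.3% held CANNTG, 35.7% GGGCGG, 37.4% CCAAT, 13.6% TATAAA, 8.3% the STAT-type motif and 3.65% the FoxO-type motif. The last 2 were in none of the 14 promoters of the 10 genes, which says only that these letters are not in the windows.

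Igf1 encodes the growth factor that mediates much of the action of growth hormone and is also made locally in muscle. It stood at 9.83, 7.21 and 7.92 RPKM in middle-aged libraries 1 to 3. In VCAM1-high cells it was at 2.73, 1.56 and 4.11, in VCAM1-low cells at 1.65 and 0.856, and in VCAM1-negative cells at 1.19, 1.04 and 1.16. Every geriatric library lay below every middle-aged library, and every VCAM1-negative library lay below every VCAM1-high library. The group means fell in the order middle-aged (8.32 ± 1.36, SD, n = 3), VCAM1-high (2.80 ± 1.28, n = 3), VCAM1-low (1.25 ± 0.564, n = 2) and VCAM1-negative (1.13 ± 0.0785, n = 3).

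Igf1 fell by 1.34 ± 0.25 (SE) on the log2 scale from middle-aged to VCAM1-high cells (limma adjusted p = 0.0418), a mean 2.97-fold lower in RPKM. It was the only one of the 10 genes to pass there, where 0.605% of the genes tested passed in either direction. With the number as a block in all 11 libraries it was again the only one (adjusted p = 0.0107), against 6.98% of all genes. The unblocked call held without VCAM1-high library 3 and ended when any other single library was left out, with adjusted p from 0.0563 to 0.183, the highest without VCAM1-high library 2. In VCAM1-negative cells Igf1 fell by 2.12 ± 0.25 (adjusted p = 0.00238), a mean 7.35-fold lower than in middle-aged cells. Without a block no other IGF gene passed there, against 14.4% of all genes tested. In VCAM1-low cells it fell by 2.06 ± 0.28 (adjusted p = 0.0111; 4.11% of genes passed), a call that ended without VCAM1-low library 2 (adjusted p = 0.191). Over the mean of the 3 gates the fall was 1.84 ± 0.21 (adjusted p = 0.00145), and 1.78 ± 0.22 (adjusted p = 0.0158) when geriatric libraries of the same number were averaged first. Without a block, the limma F test among the 4 groups passed for Igf1 alone of the 10 genes (adjusted p = 0.00871), with 3.32% of all genes passing.

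Between geriatric gates the differences of Igf1 did not pass. VCAM1-negative against VCAM1-high gave a log2 difference of -0.78 ± 0.25 (adjusted p = 0.473). With the geriatric libraries blocked by replicate number its adjusted p was 0.0702. The VCAM1-low libraries overlapped both other gates, and neither VCAM1-low against VCAM1-high (-0.72 ± 0.28, adjusted p = 0.982) nor VCAM1-negative against VCAM1-low (-0.06 ± 0.28, adjusted p = 0.9999) passed.

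Macrophages and fibro-adipogenic progenitors are other muscle sources of Igf1. The 12 macrophage markers summed to 32.9, 8.14 and 270 RPKM in middle-aged libraries 1 to 3, where Igf1 was at 9.83, 7.21 and 7.92. They summed to 1180 in VCAM1-high library 3, which had the highest geriatric Igf1, 4.11. In VCAM1-negative library 3 they summed to 309, where Igf1 was at 1.16. Ptprc was at 0 in middle-aged libraries 1 and 2, at 0.508 in middle-aged library 3 and at 3.30 in VCAM1-high library 3. The fibro-adipogenic sums overlapped between ages, at 1893 to 3556 RPKM for middle-aged and 1179 to 2320 for geriatric libraries. The muscle stem cell markers summed to 3354 to 4483 RPKM at middle age, against 2280 to 4305 for VCAM1-high, 2189 to 2757 for VCAM1-low and 1644 to 2588 for VCAM1-negative. The pericyte and smooth muscle markers summed to 179 to 491 RPKM at middle age and 68.1 to 207 at geriatric age. The part of any of these cell types in the fall of Igf1 was not tested.

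Igf2 encodes the ligand best known from fetal growth, expressed from the paternal allele. It stood at 8.29, 8.31 and 10.5 RPKM in the middle-aged libraries. In VCAM1-high cells it was at 12.4, 19.8 and 21.3, in VCAM1-low cells at 18.1 and 18.3, and in VCAM1-negative cells at 11.6, 16.9 and 36.1. All 8 geriatric libraries lay above all 3 middle-aged libraries, and the geriatric gates overlapped one another. The means ran from 9.02 ± 1.25 (SD, n = 3) for middle-aged cells to 17.9 ± 4.79 for VCAM1-high (n = 3), 18.2 ± 0.133 for VCAM1-low (n = 2) and 21.5 ± 12.9 for VCAM1-negative cells (n = 3), with no difference among the last 3 beyond their spread.

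Over the mean of the 3 gates Igf2 was higher by 0.95 ± 0.28 on the log2 scale (limma adjusted p = 0.0453). With Igf1 it made 2 of the 10 genes to pass in that comparison, against 15.8% of all genes tested. The call was lost when geriatric libraries of the same number were averaged (1.02 ± 0.26, adjusted p = 0.0718). It also ended without any middle-aged library, VCAM1-high library 2 or 3, VCAM1-low library 1 or 2, or VCAM1-negative library 2, with adjusted p from 0.0515 to 0.144. Taken singly, the gates gave 0.88 ± 0.34 (adjusted p = 0.261) for VCAM1-high, 0.94 ± 0.38 (0.148) for VCAM1-low and 1.03 ± 0.34 (0.0656) for VCAM1-negative against middle-aged cells. The last passed without VCAM1-negative library 1 (adjusted p = 0.0296), the lowest of its gate. With the number as a block in all 11 libraries, VCAM1-low (1.17 ± 0.27, limma adjusted p = 0.0215) and VCAM1-negative (1.03 ± 0.23, 0.0115) passed. The shares of all genes passing there were 15.8% and 31.6%, and middle-aged libraries did not pair with these gates by number. The blocked F test also passed for Igf2 (0.0306). VCAM1-negative against VCAM1-high gave 0.14, with a 95% interval from -0.61 to 0.89.

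Igf2 and Igf1 were the only members whose geriatric libraries all lay outside the middle-aged range, Igf2 above it and Igf1 below it. Over all genes tested, 9.04% lay wholly above and 4.95% wholly below. VCAM1-high cells taken alone gave the same 2 genes, against 13.8% above and 6.36% below over all genes. VCAM1-negative cells gave Igf2 and Igf1r above and Igf1, Igf2r and Igfbp5 below, 2 and 3 of the 10, against 18.7% and 20.3%. The ratio of Igf1 to Igf2 was 0.758 to 1.19 in middle-aged libraries and 0.0321 to 0.220 in geriatric libraries, while their sum overlapped, at 15.5 to 18.4 RPKM and 12.8 to 37.3 RPKM. These ratios and sums were chosen after the values had been seen and carry no test. In the reference annotation, exons of Igf2 overlap the gene Gm49394 on its strand and Igf2os on the opposite strand. Whether reads were counted by strand is not stated in any source used, so reads of these genes may be mixed.

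**Figure D2:**
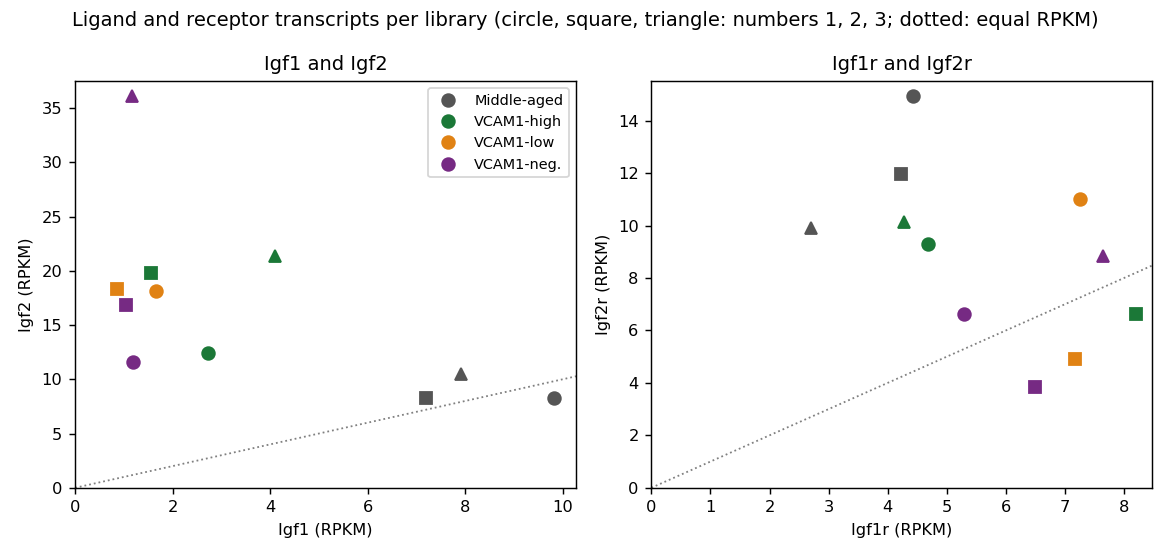
Each point is a library, with the RPKM of Igf1 against Igf2 on the left and of Igf1r against Igf2r on the right, and a dotted line of equal RPKM. The 3 middle-aged libraries lie near the line for the ligands, with ratios of Igf1 to Igf2 from 0.758 to 1.19, and the 8 geriatric libraries lie well above it, with ratios of 0.220 or less.

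The genes most like Igf1 over the 11 libraries, by Pearson correlation of log2(RPKM + 1) among 11369 genes, were Emp3 (r = 0.993), a membrane protein, Sparc (r = 0.984), a matrix-binding glycoprotein, and Pdlim4 (r = 0.983), an actin-associated protein. Sparc went from a mean of 745 RPKM in middle-aged cells to 216 for VCAM1-high, 72.6 for VCAM1-low and 75.4 for VCAM1-negative cells. Flcn, which encodes folliculin, was the most opposite (r = -0.989), with means of 17.8, 33.3, 41.3 and 47.0 RPKM. For Igf2 the closest genes were Zfp593 (r = 0.959), Ccdc86 (r = 0.938) and Flot1 (r = 0.938), a membrane raft protein, and the most opposite was Polr1d (r = -0.923), a subunit of RNA polymerases. The 11 libraries include the age and gate groups, so these values hold the differences between groups as well as those between libraries.

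Igf1r, the signalling receptor for both ligands, stood at 4.42, 4.23 and 2.71 RPKM in middle-aged libraries. It was at 4.69, 8.20 and 4.27 for VCAM1-high, 7.25 and 7.17 for VCAM1-low and 5.29, 6.50 and 7.64 in VCAM1-negative libraries. All VCAM1-low and VCAM1-negative libraries lay above the middle-aged ones, and VCAM1-high library 3 lay within their range. The means, in rising order, were 3.79 ± 0.937 (SD, n = 3) for middle-aged, 5.72 ± 2.16 (n = 3) for VCAM1-high, 6.48 ± 1.18 (n = 3) for VCAM1-negative and 7.21 ± 0.0584 (n = 2) for VCAM1-low cells. No neighbouring pair passed the test. The log2 difference over the 3 gates was 0.64 ± 0.20 (limma adjusted p = 0.0529), which passed without VCAM1-high library 3 (adjusted p = 0.0366). It also passed with a pseudocount of 0.1 (0.0484), after equal-sum (0.0481) or median-ratio rescaling (0.0406) and with a replicate block in all 11 libraries (0.0349), and it did not with geriatric libraries averaged by number (0.131).

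Igf2r encodes the mannose 6-phosphate receptor, which binds IGF2 and carries it to lysosomes for degradation. It stood at 14.95, 11.9 and 9.89 RPKM in middle-aged libraries. It was at 9.29, 6.64 and 10.1 for VCAM1-high, 11.002 and 4.93 for VCAM1-low and 6.62, 3.82 and 8.82 in VCAM1-negative libraries. All VCAM1-negative libraries lay below the middle-aged range, and the other gates overlapped it. The means fell in the order middle-aged (12.3 ± 2.55, SD, n = 3), VCAM1-high (8.68 ± 1.82, n = 3), VCAM1-low (7.97 ± 4.29, n = 2) and VCAM1-negative (6.42 ± 2.51, n = 3), and no neighbouring pair passed. VCAM1-negative against middle-aged gave -0.88 ± 0.32 on the log2 scale (limma adjusted p = 0.0819), and the mean of the gates -0.66 ± 0.26 (adjusted p = 0.108), which passed without VCAM1-low library 1 (adjusted p = 0.0439). With a replicate block in all 11 libraries both passed (limma adjusted p = 0.0210 and 0.0375), where 31.6% and 30.9% of all genes passed.

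The ratio of Igf2r to Igf1r was 2.83 to 3.65 in middle-aged libraries and 0.588 to 2.37 in geriatric libraries, again a ratio chosen after the values had been seen. It was under 1 in the geriatric libraries numbered 2 alone, at 0.809 for VCAM1-high, 0.687 for VCAM1-low and 0.588 for VCAM1-negative.

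**Figure D3:**
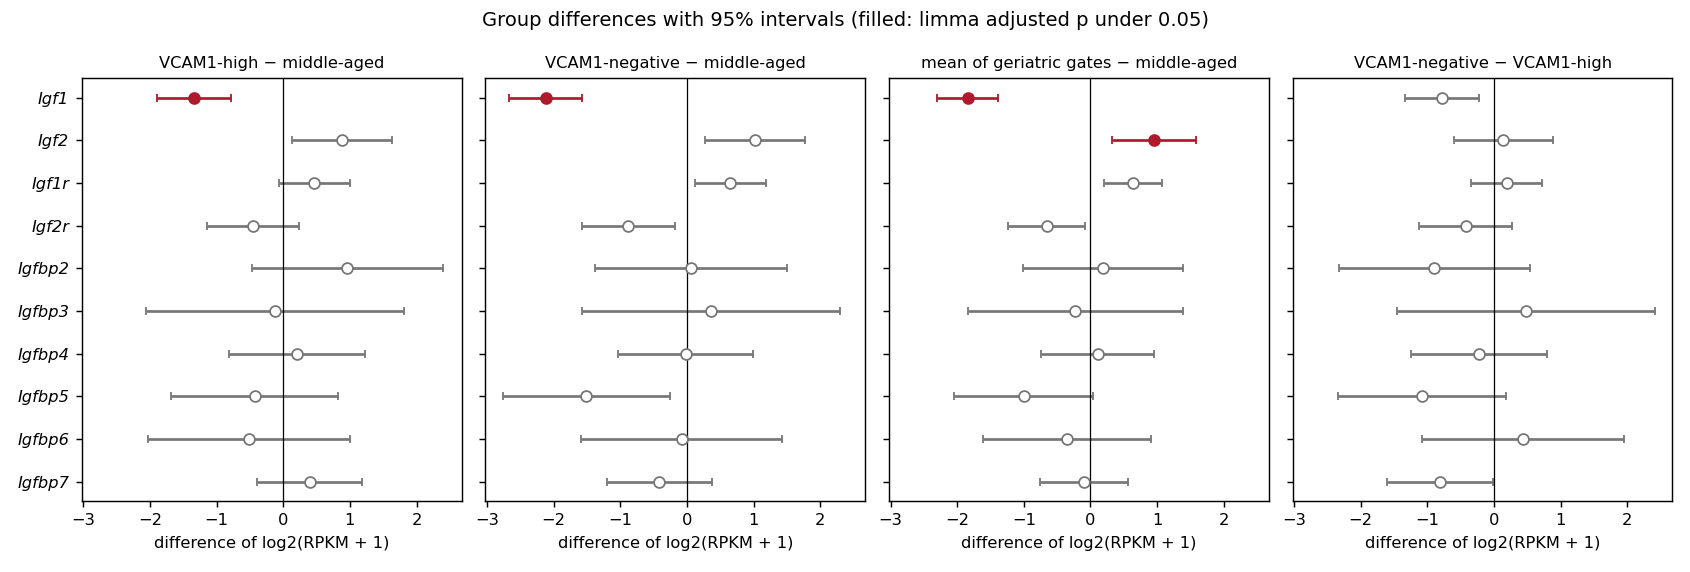
Each row is an IGF gene and each panel a comparison; points are differences of log2(RPKM + 1) with 95% intervals from limma, filled where the adjusted p was under 0.05. Igf1 is filled in all 3 comparisons with middle-aged cells and Igf2 only for the mean of the geriatric gates, and no point is filled between VCAM1-negative and VCAM1-high cells.

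The binding proteins spanned a wide range of levels. Igfbp4, Igfbp5 and Igfbp7 together held 82.6% to 97.8% of the summed RPKM of the 6 binding proteins, a sum of 232 to 702 RPKM per library. Without a block none of the 6 passed in any comparison with middle-aged cells. With the number as a block in all 11 libraries Igfbp5 alone passed, and only in VCAM1-negative cells. Between geriatric gates, Igfbp5 and Igfbp7 passed only when libraries of the same number were compared with each other.

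Igfbp5 encodes a binding protein that attaches to extracellular matrix and is known to be regulated during muscle differentiation. It stood at 86.7, 39.4 and 61.2 RPKM in VCAM1-high libraries 1 to 3, at 73.8 and 19.1 in VCAM1-low libraries 1 and 2, and at 50.6, 12.96 and 31.3 in VCAM1-negative libraries 1 to 3. In each of the 3 numbers the VCAM1-negative library was below the VCAM1-high library, with ratios of 0.583, 0.329 and 0.512, although the gates as a whole overlapped. The share of all genes lower in all 3 numbers was not counted. Within each number present in all gates, VCAM1-low lay between the other two. Without a block the log2 difference between VCAM1-negative and VCAM1-high was -1.08 ± 0.57 (limma adjusted p = 0.823). With the 8 geriatric libraries blocked by replicate number it was -1.08 ± 0.17 (adjusted p = 0.0204), where 4.17% of the genes tested passed in either direction and 3.26% passed downward and 0.908% upward. This blocked call ended without library 2 of either gate or without either VCAM1-low library.

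Middle-aged libraries held Igfbp5 at 65.6, 136 and 57.6 RPKM, all above the VCAM1-negative libraries. The group means fell from 86.4 ± 43.2 (SD, n = 3) in middle-aged through 62.4 ± 23.7 (n = 3) for VCAM1-high and 46.5 ± 38.7 (n = 2) for VCAM1-low to 31.6 ± 18.8 (n = 3) in VCAM1-negative cells. VCAM1-negative against middle-aged gave -1.51 ± 0.57 on the log2 scale (limma adjusted p = 0.093). With a replicate block in all 11 libraries it was -1.51 ± 0.50 (limma adjusted p = 0.0461), where 31.6% of all genes passed. The lowest Igfbp5 values of the geriatric gates were in the libraries numbered 2, which also had the lowest summed muscle stem cell markers of their gates, 2280, 2189 and 1644 RPKM. Their part in the Igfbp5 values was not tested.

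Igfbp7 encodes a secreted matrix-associated protein that binds IGFs weakly. It stood at 120.0, 168 and 165 RPKM for VCAM1-high, 97.2 and 91.4 for VCAM1-low and 91.0, 76.7 and 86.7 in VCAM1-negative libraries. The 3 gates did not overlap: every VCAM1-high library was above every VCAM1-low library, and every VCAM1-low library was above every VCAM1-negative library. The last margin was narrow, 91.4 against 91.0 RPKM, and the share of all genes in this order was not counted. Neither VCAM1-low against VCAM1-high (-0.66 ± 0.40, limma adjusted p = 0.982) nor VCAM1-negative against VCAM1-low (-0.15 ± 0.40, adjusted p = 0.9999) passed. The ratio of VCAM1-negative to VCAM1-high within numbers was 0.758, 0.458 and 0.526. Without a block the log2 difference was -0.81 ± 0.36 (limma adjusted p = 0.744), and with the geriatric block -0.81 ± 0.15 (adjusted p = 0.0326). The blocked call held without library 1 of either gate and ended without any other geriatric library. Igf1 and Igfbp7 were the 2 members whose VCAM1-negative libraries all lay below the VCAM1-high ones, against 8.08% of all genes tested, and no member lay wholly above, against 3.28%.

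Without a block no IGF gene and no other gene of the 11568 passed between VCAM1-negative and VCAM1-high cells in limma, a share of 0%. At an unadjusted p under 0.05 there were 755 genes, Igf1 and Igfbp7 among them. Middle-aged Igfbp7 spanned 61.7 to 221 RPKM, with 105 in library 1, 61.7 in library 2 and 221 in library 3, and so covered all geriatric values. Exons of Igfbp7 overlap those of Polr2b on the opposite strand, a gene at no more than 31.1 RPKM in any library.

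**Figure D4:**
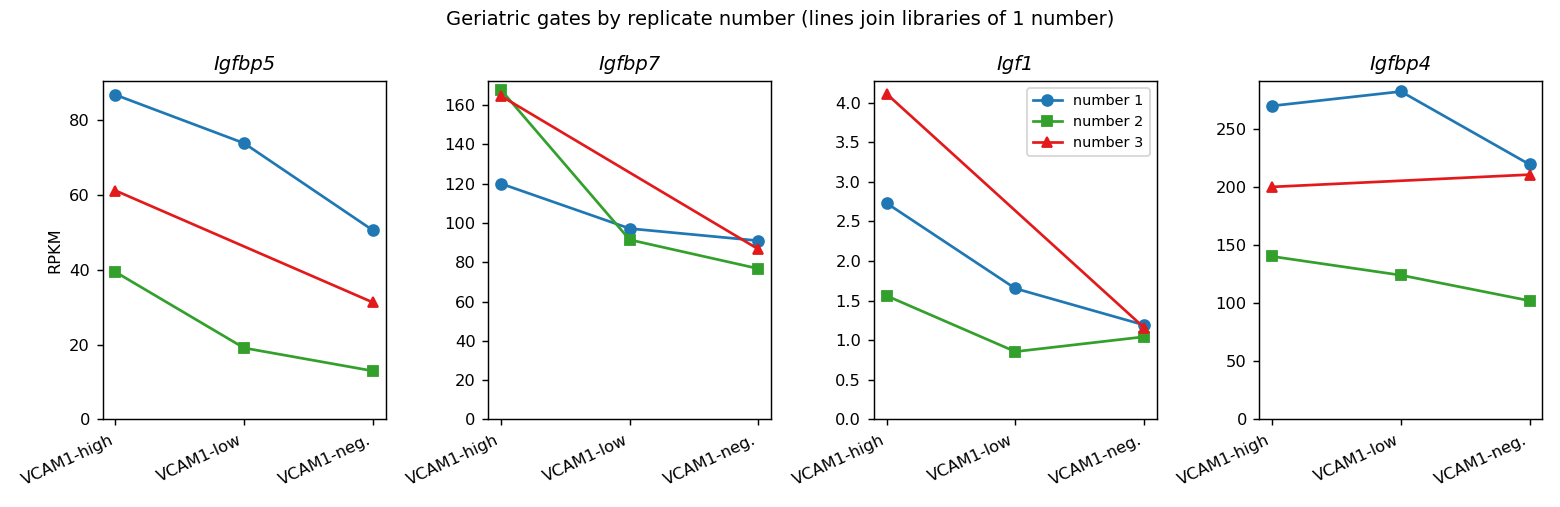
Lines join geriatric libraries of the same number across the VCAM1-high, VCAM1-low and VCAM1-negative gates (x axis), with RPKM from 0 on the y axis, for Igfbp5, Igfbp7, Igf1 and Igfbp4. The VCAM1-negative point of Igfbp5, Igfbp7 and Igf1 is below the VCAM1-high point in all 3 numbers, and that of Igfbp4 in numbers 1 and 2 only. Igf2r, not drawn, was also lower in all 3 numbers, with ratios of 0.712, 0.576 and 0.871.

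Igfbp4 encodes a binding protein that mostly blocks IGF action until it is cleaved. It was the most abundant IGF transcript of every group, at 119, 125 and 330.0 RPKM in middle-aged, 270.0, 140.3 and 200.2 for VCAM1-high, 282.3 and 124 for VCAM1-low and 219.5, 102 and 211 in VCAM1-negative libraries. The spread within each group was as wide as that between groups, and no comparison passed. Means were 191 ± 120.1 (SD, n = 3), 204 ± 64.9 (n = 3), 203 ± 112 (n = 2) and 177 ± 65.4 (n = 3) in the same order. The VCAM1-negative against middle-aged difference of -0.02 on the log2 scale had a 95% interval from -1.03 to 0.997, which is wide against the difference itself.

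Igfbp3 encodes the main IGF carrier of serum. It ranged from 2.81 to 42.0 RPKM, with 33.9, 4.01 and 22.1 in the middle-aged libraries, 3.65, 14.6 and 42.0 for VCAM1-high, 2.81 and 17.7 for VCAM1-low and 12.96, 24.1 and 23.2 in VCAM1-negative libraries. High and low libraries occurred in each of the first 3 groups, which overlapped throughout. VCAM1-high library 3, the highest, also held the most macrophage marker RNA, summed at 1180 RPKM. Middle-aged library 1, the next highest in Igfbp3, had a macrophage sum of 32.9. Over the 11 libraries Igfbp3 and the macrophage sum had a Pearson r of 0.724 on the log2 scale. The part of macrophages in Igfbp3 was not tested. The log2 difference over the 3 gates was -0.23, with a 95% interval from -1.84 to 1.39 (limma adjusted p = 0.847).

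Igfbp6 encodes a binding protein that prefers IGF2. Middle-aged library 3 was far above all others at 70.4 RPKM, against 6.64 and 10.4 in middle-aged libraries 1 and 2. Values were 6.94, 9.68 and 24.4 for VCAM1-high, 10.2 and 14.7 for VCAM1-low and 15.1, 16.3 and 18.0 in VCAM1-negative libraries. Middle-aged library 3 also had the highest summed markers of tenocytes (183 RPKM, against 16.6 to 63.1 elsewhere) and of endothelial cells (539, against 25.8 to 257), and the part of these cells in Igfbp6 was not tested. The VCAM1-negative library was above the VCAM1-high library in numbers 1 and 2 and below it in number 3. No comparison passed with all libraries, the blocked difference between these gates passed without VCAM1-high or VCAM1-negative library 3 (adjusted p = 0.0392 and 0.0380), and the log2 difference over the 3 gates was -0.36 ± 0.57 (limma adjusted p = 0.689).

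Igfbp2, a binding protein prominent in fetal tissue, was the rarest of the binding proteins. It was listed at 0 in middle-aged library 2 and VCAM1-low library 1 and at 9.004 RPKM in VCAM1-high library 3, with 1.04 and 0.578 in middle-aged libraries 1 and 3. The remaining values were 0.339 and 0.776 in VCAM1-high libraries 1 and 2, 0.156 in VCAM1-low library 2 and 1.85, 0.104 and 0.164 in the VCAM1-negative libraries. A single library thus held the only value above 2 RPKM, and no comparison passed.

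The genes around the IGF system were read from 7 lists with 69 genes, of which 67 were in the table and 58 were tested. Against middle-aged cells, 2 of the 58 passed in VCAM1-high, 18 in VCAM1-negative and 15 over the mean of the gates, 9 of them higher and 6 lower. Over all genes tested the shares passing were 0.605%, 14.4% and 15.8%, the last made of 8.04% higher and 7.81% lower. With the replicate block in all 11 libraries, 10 of the 58 passed in VCAM1-high cells, 6 higher and 4 lower, against 6.98% of all genes. When geriatric libraries of the same number were averaged, 5 of the 15 remained, namely Htra1, Tsc1, Fbxo32, Cish and Igf2bp2, and 2.08% of all genes passed. The comparisons share the middle-aged libraries. The pathway values below are for the mean of the 3 gates against middle-aged cells unless another comparison is named.

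Among 11 genes of IGF availability and proteolysis, 5 were tested and 1 passed. Htra1, a secreted serine protease whose human counterpart can cleave binding proteins, was at 67.4, 54.6 and 99.7 RPKM in middle-aged libraries and at 10.9 to 29.1 with a median of 17.4 in the 8 geriatric libraries, with no overlap. It fell by 2.099 ± 0.29 on the log2 scale (limma adjusted p = 0.00287), and by 1.94 ± 0.34 in VCAM1-high cells alone (adjusted p = 0.0368). The VCAM1-high call, as for Igf1, ended when any library other than VCAM1-high library 3 was left out (adjusted p up to 0.171). Stc2, an inhibitor of the protease encoded by Pappa, gave 0.66 ± 0.21 (adjusted p = 0.0508). Pappa, which cleaves IGFBP4, was below the minimum and not tested, at 0.0142 to 0.0854 RPKM for middle-aged and 0.184 to 0.885 for geriatric libraries. The median log2 difference of the 5 tested genes was 0.17, beside -0.01 over all genes.

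Of 18 genes of the insulin receptor and receptor-proximal signalling, 17 were tested, with 2 higher and 2 lower. Insr, the insulin receptor, which can pair with the IGF receptor, stood at 1.73, 1.36 and 2.33 RPKM in middle-aged libraries and at 2.86 to 5.96 with a median of 3.97 in geriatric libraries. It rose by 0.87 ± 0.18 (limma adjusted p = 0.0138), a call lost without middle-aged library 1 or 2 (adjusted p = 0.0549 and 0.0515) and with libraries averaged by number (0.0669). Pik3cb, a catalytic subunit of PI3 kinase, was higher by 0.69 ± 0.19 (adjusted p = 0.0367), a call that 9 of 11 omissions ended (0.0508 to 0.132), as did averaging by number (0.0830). Grb10, an imprinted adaptor that restrains both receptors, fell by 0.83 ± 0.17 (adjusted p = 0.0126), with 37.8 to 65.5 RPKM at middle age and 23.9 to 36.6 at geriatric age, and lost the call without middle-aged library 1 (0.0563) or averaged by number (0.0943). The receptor substrate genes Irs1 (0.22 ± 0.17, adjusted p = 0.377) and Irs2 (0.49 ± 0.15, adjusted p = 0.0506) did not pass, although Irs2 passed in VCAM1-negative cells (0.61 ± 0.18, adjusted p = 0.0484), a call that ended without any 1 of the 11 libraries. The list median was 0.07.

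In the TOR and FoxO branch 11 of 12 genes were tested, and 2 passed, both higher. Tsc1, a brake on the mTOR activator Rheb, was at 1.72, 1.37 and 1.56 RPKM in middle-aged and at 2.88 to 6.08, with a median of 4.31, in geriatric libraries, and rose by 1.004 ± 0.19 (limma adjusted p = 0.00974). Rictor, a subunit of the mTOR complex that phosphorylates Akt, was at 8.95, 10.6 and 9.15 RPKM and at 14.1 to 28.2, median 19.4, and rose by 0.97 ± 0.21 (adjusted p = 0.0161), a call lost without middle-aged library 1 or 3 (0.0679 and 0.0603) or averaged by number (0.0567). Both sets of libraries were free of overlap. In VCAM1-high cells alone Tsc1 and Rictor passed with the block (adjusted p = 0.0396 and 0.0216) and not without it (0.138 and 0.153). Foxo1, a transcription factor that Akt keeps out of the nucleus, gave 0.08 ± 0.16 (adjusted p = 0.727).

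All 10 FoxO target genes were tested, with 2 higher and none lower, and a median difference of 0.70 against -0.01 over all genes. Fbxo32, a ubiquitin ligase of muscle atrophy, was at 2.38, 1.202 and 1.51 RPKM in middle-aged, 4.37, 6.56 and 3.26 for VCAM1-high, 6.56 and 5.61 for VCAM1-low and 9.25, 14.98 and 7.14 in VCAM1-negative libraries. Each geriatric library was above each middle-aged one, and the VCAM1-negative libraries were the highest. It rose by 1.51 ± 0.24 (limma adjusted p = 0.00489), and between VCAM1-negative and VCAM1-high cells by 0.98 with the geriatric block (adjusted p = 0.0307) and not without it (adjusted p = 0.406). That blocked call held in 1 of 8 omissions, without VCAM1-negative library 1 (0.0441), and ended without any other geriatric library (up to 0.124). In VCAM1-high against middle-aged cells Fbxo32 passed with the block (0.0386) and not without it (0.121). Klf15, a transcription factor induced by glucocorticoids, rose by 1.40 ± 0.30 (adjusted p = 0.0146), a call lost without middle-aged library 1 or 2 (0.0525 and 0.0543) or averaged by number (0.0545). Trim63, another atrophy ligase, passed only in VCAM1-negative cells (3.19 ± 0.95, adjusted p = 0.0467), where library 2 was at 88.3 RPKM, library 3 at 10.1 and library 1 at 1.62. Libraries 2 and 3 also had the highest summed myofibre markers, 7242 and 5637 RPKM, whose part in Trim63 and Fbxo32 was not tested. The Trim63 call ended on 9 of 11 omissions, with adjusted p up to 0.113.

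**Figure D5:**
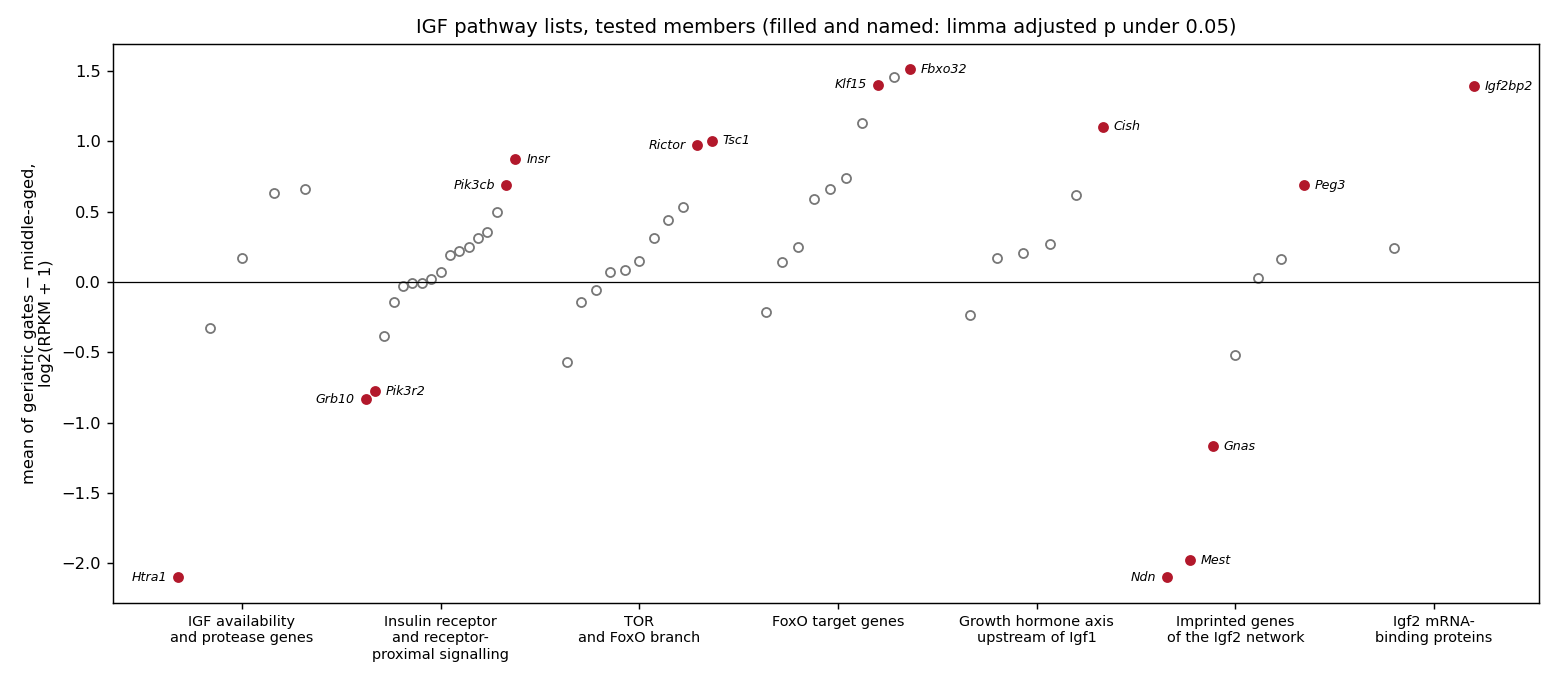
Each point is a tested gene of 7 IGF pathway lists (x axis), with its difference of log2(RPKM + 1) between the mean of the geriatric gates and middle-aged cells (y axis); filled points passed. Htra1, Ndn and Mest are lowest, at -2.099, -2.097 and -1.98, and Fbxo32 and Klf15 highest among the filled points, at 1.51 and 1.40.

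Upstream of Igf1, 6 of 6 genes of the growth hormone axis were tested and 1 passed. Cish, a feedback inhibitor of JAK and STAT signalling, was at 39.3, 41.7 and 39.3 RPKM in middle-aged libraries and at 76.6 to 94.5, median 87.7, in geriatric libraries. It rose in VCAM1-high (1.07 ± 0.15, limma adjusted p = 0.0114), VCAM1-negative (1.05 ± 0.15, adjusted p = 0.00393) and over the gates (1.10 ± 0.12, adjusted p = 0.00128), and kept the call over the gates in all 11 omissions. The VCAM1-high call ended with only the compared groups in the model (0.0993), without the 3 libraries numbered 3 (0.0638) and without the middle-aged and VCAM1-high libraries numbered 3 (0.0569). The receptor gene Ghr (0.17 ± 0.17, adjusted p = 0.503) and the feedback inhibitor Socs2 (0.27 ± 0.19, adjusted p = 0.340) did not pass.

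Igf2 belongs to a network of imprinted growth genes, of which 7 of 9 were tested. H19, the neighbour of Igf2, and Meg3 were not analysed here. Mest was at 67.9, 39.7 and 66.1 RPKM in middle-aged, 22.5, 14.9 and 58.3 for VCAM1-high, 11.7 and 7.60 for VCAM1-low and 12.4, 5.83 and 11.6 in VCAM1-negative libraries, with only VCAM1-high library 3 inside the middle-aged range. It fell by 1.98 ± 0.37 over the gates (limma adjusted p = 0.00947). Ndn, which encodes necdin, fell by 2.097 ± 0.40 (adjusted p = 0.0104), and Gnas by 1.17 ± 0.31 (adjusted p = 0.0320). Peg3 moved the other way, higher by 0.69 ± 0.16 (adjusted p = 0.0184). None of these 4 calls held with libraries averaged by number, with adjusted p of 0.0522 for Mest, 0.0515 for Ndn, 0.0843 for Gnas and 0.0839 for Peg3. Without middle-aged library 1 Ndn and Peg3 lost their calls (0.0501 and 0.0878), and Peg3 also lost it without middle-aged library 3 (0.0547) or VCAM1-low library 2 (0.0501). Gnas lost it without any middle-aged library or VCAM1-low library 2 (0.0720 to 0.109). In VCAM1-high against middle-aged cells all 4 passed with the block (0.0482 for Mest, 0.00534 for Ndn, 0.0477 for Gnas and 0.0395 for Peg3) and none without it (0.315, 0.174, 0.300 and 0.137). With the geriatric block, Mest, Ndn and Dlk1 fell between VCAM1-high and VCAM1-negative cells by 1.42, 0.81 and 1.19 (limma adjusted p = 0.0283, 0.0310 and 0.01996), and without it none passed (0.460, 0.840 and 0.223). The blocked Ndn call ended without any 1 of the 8 geriatric libraries (0.0676 to 0.123). Those of Mest and Dlk1 held without VCAM1-high library 3 or VCAM1-negative library 1 or 3 and ended without any other (up to 0.109 and 0.101).

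Of the genes for proteins that bind Igf2 mRNA, Igf2bp2 and Igf2bp3 were tested. Igf2bp2 stood at 3.96, 6.68 and 4.46 RPKM in middle-aged, 11.3, 19.7 and 12.1 for VCAM1-high, 11.1 and 19.6 for VCAM1-low and 9.58, 18.0 and 18.8 in VCAM1-negative libraries. All geriatric libraries lay above the middle-aged ones, as for Igf2 itself. It rose by 1.39 ± 0.26 over the gates (limma adjusted p = 0.00950) and by 1.42 ± 0.31 in VCAM1-negative cells (adjusted p = 0.0193). In VCAM1-high cells the difference of 1.33 ± 0.31 did not pass without the block (adjusted p = 0.0911) and passed with it (0.00685). The call over the gates ended without middle-aged library 1 (adjusted p = 0.0505), and that for VCAM1-negative cells without middle-aged library 1 or 3 or VCAM1-negative library 2 or 3 (0.0519 to 0.0780). Igf2bp3 was at 0.56 to 1.36 RPKM and did not pass (0.24 ± 0.16, adjusted p = 0.302).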

How the data were processed

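Bulk RNA-seq of sorted YFP+ muscle cells was compared in 11 libraries, grouped by the sample titles. The authors deposited RPKM values for 20640 gene symbols. Per the labels' protocols, paired-end libraries were made from total RNA with a low-input SMART-Seq kit. Build GRCm39, STAR 2.7.5b, Bowtie2 2.1.0, SAMtools 0.1.19 and cutadapt 3.1 appear, with no order, in the submitters' processing notes. The sources used here do not give the counting tool, the annotation, the gene lengths or the use of strand. RPKM are not counts, so no count model was used.

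Values were tested as log2(RPKM + 1), with a pseudocount of 1, in limma 3.58.1 (R 4.3.3): 4 group means over 11 libraries, empirical Bayes with a variance trend, a minimum of 1 RPKM in at least 2 libraries, Benjamini-Hochberg adjustment over 11568 genes. Errors of differences are standard errors and errors of levels are SDs between libraries. The model was tested on simulated data for VCAM1-high against middle-aged cells only. The simulated libraries were independent, so that test does not cover deviations shared by libraries of the same number. Python 3.11.15 made summaries and figures.

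Depth was estimated from low RPKM steps of 3428 single-transcript genes, of which 62.47% to 72.95% of values per library lay within 0.1 of a whole read. Lengths came from another annotation, so depths are approximate and no reads were recovered for testing.

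The IGF genes, the pathway and marker lists and the tests were chosen with earlier results of these data known. All 10 IGF genes are named in each comparison. Of the pathway lists, Insr, Irs1, Irs2, Pappa, Stc2, Htra1, H19, Ghr, Socs2 and Foxo1 are always named, plus up to 3 passing genes per list with the smallest adjusted p. Gnas, Dlk1 and Igf2bp3 are named outside that rule, after their values were seen. Same-numbered geriatric libraries deviated together (7 pairs, r = 0.403 to 0.581). These pairs are not independent. With 2 VCAM1-low libraries, their deviations from the group mean are mirror images of each other. Middle-aged and VCAM1-high libraries of 1 number had r = 0.211 to 0.554 (3 pairs), and the numbers were taken to pair these groups too. That second pairing is weak. Middle-aged library 2 was as close to VCAM1-high library 1 (r = 0.331) as to VCAM1-high library 2 (r = 0.332). Only the libraries numbered 3 stood clear of unlike numbers there, with r from -0.483 to -0.210. Blocked calls of VCAM1-high against middle-aged cells rest on this pairing. What a number marks is not stated. Values with a replicate block (8 geriatric libraries between gates, 11 libraries for VCAM1-high against middle-aged), or with geriatric libraries averaged by number, stand beside results whose call they change. For the IGF genes alone, the block of 11 libraries is also given for the other comparisons with middle-aged cells. Middle-aged libraries did not pair with VCAM1-negative (3 pairs, r = -0.0246 to 0.0808) or VCAM1-low ones (2 pairs, r = 0.0318 and 0.147). Alternatives were the pseudocount, the filter, rescaling, the samples in the model, the blocks and each library left out.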

Additional observations from a re-analysis of the deposited data

How the results depend on the processing

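No called difference of an IGF gene changed direction under any alternative run. Among the differences of IGF genes that were not called, 111 values changed sign over the alternatives. Of the 10 IGF genes, the number passing without a replicate block was 1 in VCAM1-high, 1 in VCAM1-negative, 1 in VCAM1-low and 2 over the mean of the gates against middle-aged cells, 1 in the F test, and 0 between gates. Raising the filter to a mean of at least 5 RPKM removed Igf1 (mean 3.57), which left 0 passing in each single gate against middle-aged cells, 0 in the F test and 1 over the gates. VCAM1-high against middle-aged also gave 0 with a pseudocount of 0.1, with no filter, with only the compared groups in the model and, chosen after seeing the data, without the 3 libraries numbered 3. VCAM1-negative against middle-aged gave 2 after median-ratio rescaling. Over the gates 3 passed, Igf1r being the third, with a pseudocount of 0.1 and after equal-sum or median-ratio rescaling, and 1 passed with no filter and, chosen after seeing the data, without the 3 libraries numbered 3, without the middle-aged and VCAM1-high libraries numbered 3, and with geriatric libraries averaged by number. A replicate block in all 11 libraries, whose numbers pair middle-aged libraries with VCAM1-high ones only weakly and not with the other gates, left 1 in VCAM1-high (Igf1, adjusted p = 0.0107) and gave 4 in VCAM1-negative, 2 in VCAM1-low, 4 over the gates and 2 in the F test, while the shares of all genes passing rose to 31.6%, 15.8%, 30.9% and 17.5%. Between VCAM1-negative and VCAM1-high cells, the replicate block in the 8 geriatric libraries gave 2 instead of 0, and 0 to 2 when a geriatric library was also left out. That geriatric block changed no other call of an IGF gene between these gates. With the block in all 11 libraries Igfbp5 and Igfbp7 did not pass there (limma adjusted p = 0.367 and 0.278). Leaving out each library in turn gave 0 to 1 in VCAM1-high, 1 to 2 in VCAM1-negative, 0 to 1 in VCAM1-low and 1 to 2 over the gates. The causes were not tested beyond the fewer genes or samples each setting holds. With 2 or 3 libraries a group, a wide interval as for Igfbp3 or Igfbp6 leaves differences of several fold undetected, and Igfbp2 was under 1 RPKM in 8 of 11 libraries.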
